A study of Mus musculus with 185 samples.

Results

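The cardiogenic and epicardial transcription factors described here were 10 genes, Tcf21, Hand2, Tbx20, Tbx18, Tbx5, Gata4, Gata6, Wt1, Mef2a and Mef2c, taken by name from the 17171 gene rows of a single-cell RNA sequencing table. All 10 had a row. The study sequenced single cells of mouse heart, 33 from uninjured and 152 from injured hearts, caught on Fluidigm C1 chips after a sort that removed endothelial (CD31+) and blood (CD45+) cells, to follow fibroblasts as they turn into myofibroblasts after myocardial infarction. The labels give every cell a C57BL/6 strain reached by backcross and an age of approximately 5 months, while the methods of the study state a backcross, to C57Bl/6J, only for the Postn MCM line. Cells of injured hearts were taken from the infarct region.

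Lineage was read from eGFP in mice heterozygous for a tamoxifen-inducible MerCreMer (MCM) gene placed in the Postn or the Tcf21 locus, with the R26-eGFP reporter (Postn MCM/+; R26-eGFP and Tcf21 MCM/+; R26-eGFP). Resident cells came from 1 capture of uninjured hearts, Jul24, with 17 Tcf21-traced cells, 12 Postn-negative cells, 3 cells labelled Tcf21-positive and Postn-positive, with no mention of a trace, and 1 further Postn-positive cell. Infarct cells came from 3 captures. Jul29 held 27 Postn-traced cells, 24 Postn-negative cells and 6 untraced Postn-positive cells. Nov4 held 44 Tcf21-traced cells and 19 untraced Postn-positive cells, and Nov11 held 29 untraced cells of the scar and 3 untraced Postn-positive cells. The labels do not say which mouse a cell came from, so each class counts as 1 sample and no test was possible. Resident and infarct cells always differed in capture, so injury and capture cannot be told apart. The labels of the Postn-positive infarct cells without a trace class mention no trace, so these cells are called untraced here. The labels do not give the genotype behind an untraced cell, so which trace it lacks is not stated and may differ between captures. The MCM allele sits at the Tcf21 locus in Tcf21 MCM/+ mice, and its part in the Tcf21 mRNA values was not tested. Some eGFP-negative cells were called Postn-positive from their Postn mRNA, so Postn itself is no result between these classes, and the labels do not say whether Tcf21 mRNA was used in naming the Tcf21 classes.

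These factors build the heart. Tcf21, Wt1 and Tbx18 mark the epicardium, the outer layer of the embryonic heart, from which most cardiac fibroblasts descend, while Gata4, Hand2, Tbx5 and Mef2c drive heart muscle genes and in combination can turn fibroblasts towards a cardiomyocyte-like state. Tcf21 and Hand2 are basic helix-loop-helix proteins, Tbx20, Tbx18 and Tbx5 belong to the T-box family, Gata4, Gata6 and Wt1 bind DNA through zinc fingers, and Mef2a and Mef2c are MADS-box factors.

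Values are log2(TPM + 1), where TPM is a length-corrected abundance of transcripts scaled to 1 total in every cell, and a cell was taken to hold a gene, which is then called detected, if its value passed 5 TPM. The interval beside a share is the 95% interval by the exact Clopper-Pearson method and covers counting error only. The number of genes above 5 TPM in a cell, used here as its depth, ran from 141 to 5419 with a median of 2770. Its median was 2264 in resident Tcf21-traced cells, 2342 in infarct Postn-negative cells, 3134 in infarct Tcf21-traced cells and 3643 in Postn-traced cells. Depth therefore differed between most of the classes compared. The classes held fibroblasts by their markers: at least 3 of 6 fibroblast markers were detected in 182 cells, all but 3, led by Dcn. At least 3 markers were detected in 1 cell for cardiomyocytes, 0 cells for endothelium, 1 cell for myeloid cells, 1 cell for Schwann cells, 5 cells for pericytes, 2 cells for the epicardial and mesothelial list and 21 cells for smooth muscle, whose leading gene was Tagln. The 21 were 10 infarct Tcf21-traced, 6 untraced Postn-positive, 3 Postn-traced and 2 scar cells, with 0 in the resident and infarct Postn-negative classes.

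Gata6 was detected in 96 cells, Tcf21 in 92 and Tbx20 in 90, about as many as one another. Mef2c followed with 57 cells, Mef2a with 38, Hand2 with 33, Gata4 with 31, Tbx18 with 28, Wt1 with 11 and Tbx5 with 4. The median cell held 3 of the 10 factors in the resident Tcf21-traced, infarct Tcf21-traced and Postn-traced classes, 2 in infarct Postn-negative, untraced Postn-positive and scar cells, and 1 in resident Postn-negative cells. SDs between cells of this number were 1.15 to 1.97 over those 7 classes, so the neighbours in this order did not differ beyond their spread.

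**Figure D1:**
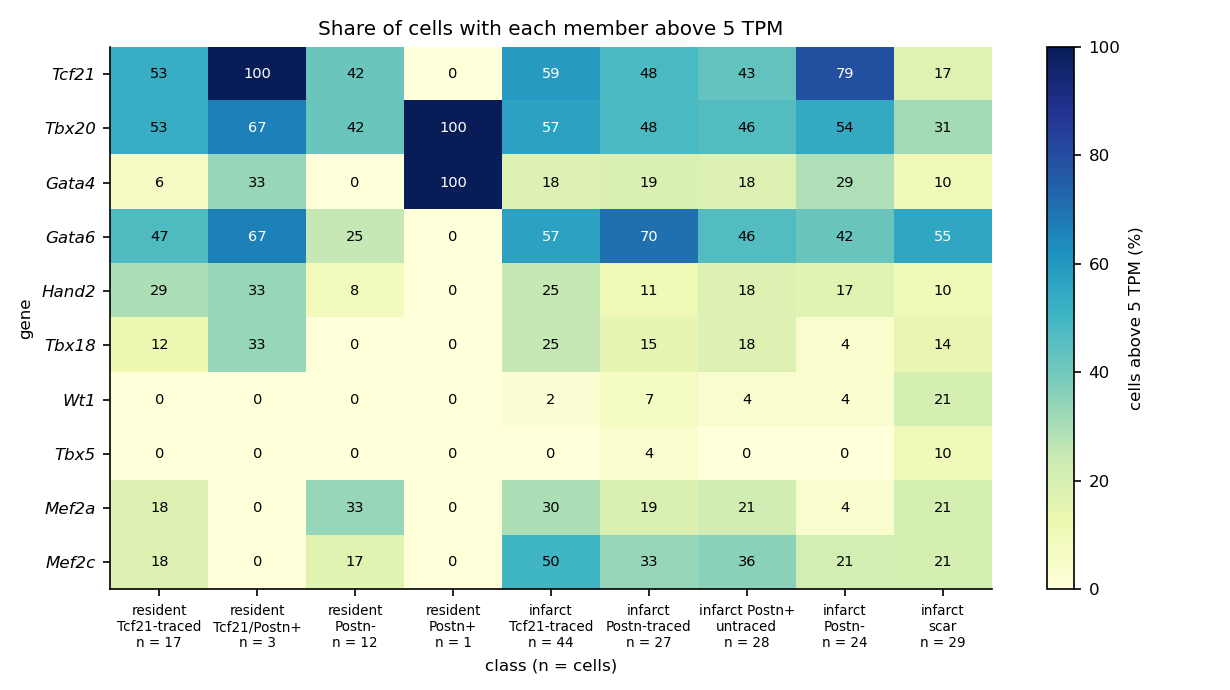
Share of cells (%) with each of the 10 factors above 5 TPM, by class, with the number of cells under each class. Tcf21, Tbx20 and Gata6 were the factors detected most often in most classes, while Wt1 and Tbx5 were detected only in infarct classes; the 2 smallest classes hold 3 cells and 1 cell.

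Tcf21 and Tbx20 were the pair found most often in the same cell, 58 cells, out of 92 cells with Tcf21 and 90 with Tbx20. Their promoters are shown for that reason, as the 250 bases before the start in RefSeq on GRCm38.p6, at chr10:22820144-22820393 on the minus strand for Tcf21 and chr9:24774304-24774553 on the minus strand for Tbx20. Of the 10 factors, 6 had a promoter entry, and Gata4, Gata6, Wt1 and Tbx5 had none. Capitals mark matches on either strand to an E-box (CANNTG), a GATA motif (AGATAA), a T-box motif (GGTGTGA) or a MEF2 motif (TAAAAATA).
Tcf21: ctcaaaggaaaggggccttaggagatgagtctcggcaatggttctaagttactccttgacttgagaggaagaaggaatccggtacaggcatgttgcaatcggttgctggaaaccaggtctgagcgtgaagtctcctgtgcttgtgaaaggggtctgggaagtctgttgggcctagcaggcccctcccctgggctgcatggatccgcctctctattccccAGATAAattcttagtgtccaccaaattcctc
Tbx20: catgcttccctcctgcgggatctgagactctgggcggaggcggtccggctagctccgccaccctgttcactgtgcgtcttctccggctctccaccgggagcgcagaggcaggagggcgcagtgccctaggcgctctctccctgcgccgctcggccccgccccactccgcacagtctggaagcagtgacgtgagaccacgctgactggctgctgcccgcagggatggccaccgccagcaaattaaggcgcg
The Tcf21 window held 1 match, to the GATA motif, beginning 31 bases before the start, and the Tbx20 window held none. Among 32851 windows of this length, 66.2% held an E-box, 9.99% the GATA motif, 3.33% the T-box motif and 2.45% the MEF2 motif. A match is a description of letters and not a binding site.

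The first question was whether fibroblasts keep these factors when they are activated, read from Tcf21-traced cells of infarcts against those of uninjured hearts. Tcf21 had similar means in both classes. In the 17 resident cells its level ran from 0 to 10.05 with a median of 3.10, and in the 44 infarct cells from 0 to 10.88 with a median of 4.29. The 2 classes overlapped over nearly their whole range. It was detected in 52.9% of resident cells (interval 27.8 to 77%) and 59.1% of infarct cells (43.2 to 73.7%), and the means were 3.93 ± 4.15 (SD between cells) and 4.01 ± 3.62. The means of Tbx20 and Gata6 differed by 0.30 and 0.31 on the log2 scale. Class medians differed more, by 1.20 for Tcf21, 1.71 for Tbx20 (4.56 and 2.84) and 2.80 for Gata6 (4.18 and 1.38), each higher in infarct cells. With the 3 Tcf21-positive and Postn-positive cells put back among resident cells the difference of means for Tcf21 was -0.67, and among cells with 2000 to 3000 genes that for Gata6 was -0.56. The direction of these small differences therefore depended on the average and on the cells kept. A trace is permanent once the reporter has been switched on, while mRNA shows the current state, and traced cells with Tcf21 listed at 0 were found in both classes, 8 of 17 and 17 of 44.

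Mef2c, a MADS-box factor of muscle and vascular development, was the only factor called on means. Its level had a median of 0 and a highest value of 9.15 in resident Tcf21-traced cells, and a median of 2.50 and a highest value of 7.58 in infarct ones. It was detected in 3 of 17 resident cells, 17.6% (3.80 to 43.4%), and in 22 of 44 infarct cells, 50% (34.6 to 65.4%). The difference of means, 1.73, was the only one of the 10 past 1 log2 unit, the size used here to call a gene higher or lower. That count of 1 of 10 stood beside 16.9% of 15733 genes higher and that of 0 of 10 lower beside 2.65%, so the factors' counts were near or under the background. Among cells with 2000 to 3000 genes, a range chosen after seeing the data, the Mef2c difference was 2.41 with 17 infarct and 11 resident cells, but with a pseudocount of 5 TPM it was 0.92 and on log2 of the mean TPM it was -0.29. The other 9 factors differed by -0.26 (Hand2) to 0.54 (Tbx18). The median difference was 0.27 over the 10 factors and 0.16 over all genes tested.

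**Figure D2:**
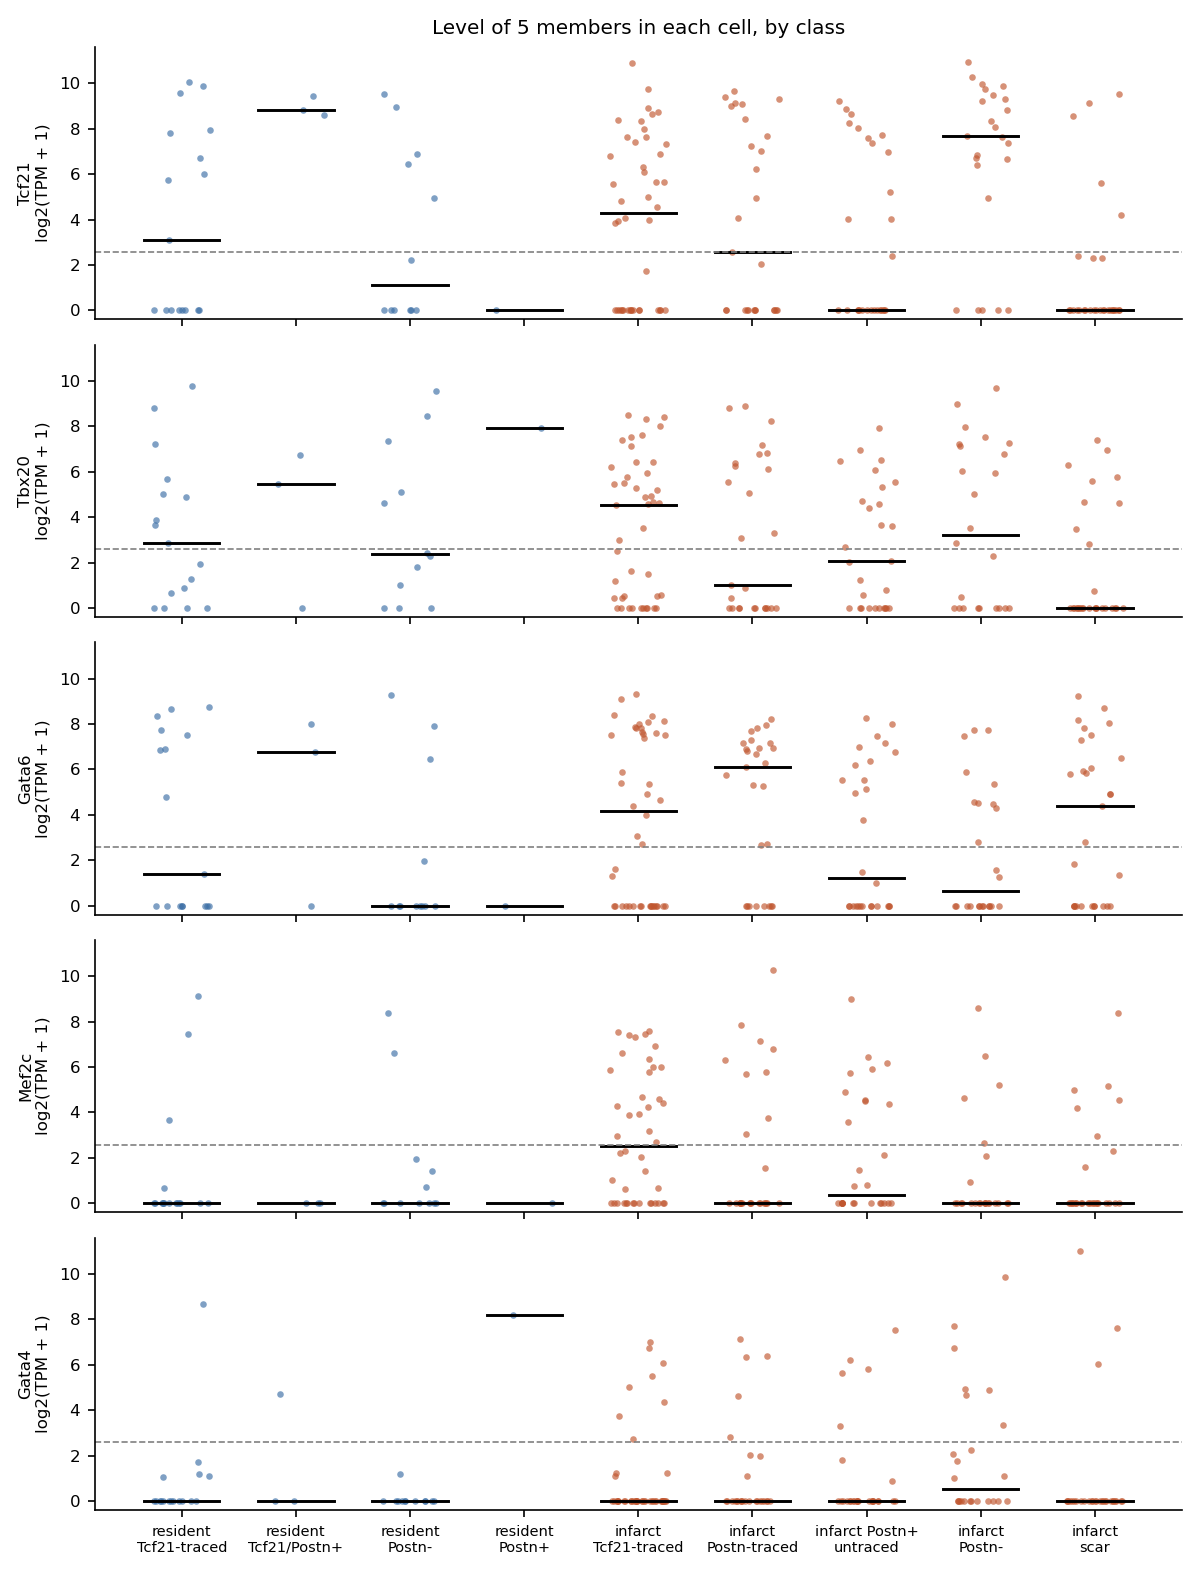
Level of Tcf21, Tbx20, Gata6, Mef2c and Gata4 in log2(TPM + 1), 1 point a cell, by class, with resident cells in blue, infarct cells in orange, the class median as a bar and 5 TPM as a dashed line. Most classes hold both cells at 0 and cells above 6 log2 units, and infarct Postn-negative cells have the highest Tcf21 median among classes of over 3 cells, 7.66.

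Within 1 capture, Jul29, Postn-traced cells were compared with Postn-negative cells, leaving out the 6 untraced Postn-positive cells, 4 of which held Tcf21. The largest difference of class means was in Tcf21. Which factor differed most depended on the average: on medians it was Gata6, at 5.45 beside -5.08 for Tcf21, and on log2 of the mean TPM it was Gata4, at -2.10 beside -1.26. In 24 Postn-negative cells Tcf21 ran from 0 to 10.95 with a median of 7.66, and in 27 Postn-traced cells from 0 to 9.68 with a median of 2.58. It was detected in 79.2% (57.8 to 92.9%) and 48.1% (28.7 to 68.1%) of them, with overlapping intervals, and in the cells that held it the median level was alike, 8.34 and 8.43. The share of cells with Tcf21 differed more than the level in the cells that held it. The difference of means was -2.68, and it kept its sign under each of 9 alternatives that could change it, from -5.08 to -1.26. Gata6, a zinc finger factor of heart and endoderm development, went the other way. It ran from 0 to 8.21 with a median of 6.09 in Postn-traced cells and from 0 to 7.74 with a median of 0.64 in Postn-negative cells, a difference of 2.10. It was detected in 70.4% (49.8 to 86.2%) and 41.7% (22.1 to 63.4%), again with overlapping intervals.

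These were 1 of 10 higher, beside 16.7% of genes, and 1 of 10 lower, beside 2.35%. The remaining 8 differed by -0.90 (Gata4) to 0.88 (Mef2c). Depth moved with this comparison, and its part in these differences was not tested. Among cells with 2500 to 4000 genes, chosen after seeing the data, 17 Postn-traced and 7 Postn-negative cells remained, and their depth still differed, with medians of 3565 and 2715 genes and 16 of the 17 deeper than the deepest of the 7. There the Tcf21 difference was -1.5, Gata6 was at 0.79 and no longer past 1 log2 unit, and Tbx20 and Gata4 were at -1.54 and -1.30. Gata6 detection went with depth over all cells, from 22.2% of cells with fewer than 2000 genes to 39.2%, 63.3% and 93.3% in the 3 deeper ranges, while Tcf21 was at 33.3%, 60.8%, 42.9% and 46.7%.

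**Figure D3:**
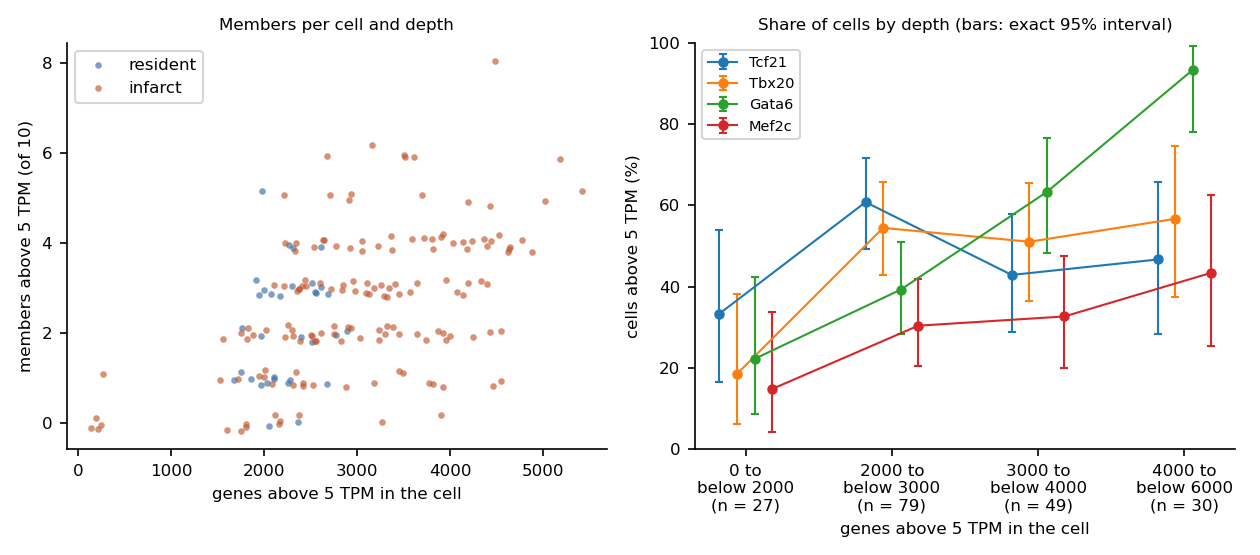
Left, the number of the 10 factors above 5 TPM against the number of genes above 5 TPM in each cell (points shifted slightly up or down to show overlap). Right, the share of cells (%) with 4 of the factors in 4 depth ranges, with exact 95% intervals; Gata6 reaches 93.3% in the deepest range and Tcf21 46.7%.

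Set against resident Tcf21-traced cells, the Postn-traced cells showed no factor past 1 log2 unit on means, 0 of 10 higher beside 20% of genes and 0 of 10 lower beside 2.51%. Tcf21 means were 3.92 ± 4.03 and 3.93 ± 4.15. Gata6 and Mef2c were each 0.92 higher and Hand2, a helix-loop-helix factor of the ventricles, was at -0.90. These lay close to the limit: Mef2c was at 1.11 with Postn-positive cells put back and at 1.08 among cells with at least 2000 genes, and on medians Gata6 was at 4.71 (6.09 and 1.38) and Tbx20 at -1.83. On log2 of the mean TPM Gata6 was at -0.34, so its direction depended on the average. Hand2 was past 1 log2 unit downwards there, at -1.64, and with a pseudocount of 0.1 TPM, at -1.40, while its median was 0 in both classes. With each cell centred on its median gene Gata6 and Mef2c were at 1.42 and Wt1 at 1.03, each past 1 log2 unit. This comparison shares its resident cells with that of the Tcf21 lineage.

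Postn-negative cells of the infarct against Postn-negative cells of uninjured hearts gave the widest gap in Tcf21. Resident Postn-negative cells ran from 0 to 9.53 with a median of 1.10 and 41.7% detected (15.2 to 72.3%). The difference of means from infarct Postn-negative cells was 3.35 and stayed above 0 under each of 7 alternatives that could change it, from 1.76 to 6.56. Gata4 was detected in 7 of 24 infarct cells and 0 of 12 resident cells, which allows a share of up to 26.5%, and differed by 2.0. Mef2a was detected in 1 of 24 and 4 of 12 cells and differed by -1.82. These made 2 of 10 higher beside 10.3% of genes and 1 of 10 lower beside 5.2%. With the labelled Postn-positive cells put back, Gata4 was at 0.96 and not past 1 log2 unit. On medians neither Gata4, at 0.50, nor Mef2a, at 0, was past it. One of the 12 resident cells held 4 of 5 myeloid markers, led by Lyz2, and 1 of 6 fibroblast markers, Dcn, with Tcf21 at 0. Ptprc, the gene of CD45, was at 9.25 in that cell, although its label reads CD45-. The summed myeloid TPM had a mean of 787.7 in the resident and 0.31 in the infarct class, medians of 0 in both, and 4 of the 5 markers, all but Cd68, were at 0 in all 24 infarct cells. Without that cell, left out after seeing the data, Tcf21 was at 3.06, Gata4 at 1.99 and Mef2a at -1.55, and Tbx20 went from 0.14 to -0.18.

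Within Nov4, Tcf21-traced cells and untraced Postn-positive cells of the same infarct capture were compared. Tcf21 was the only factor past 1 log2 unit on means. The untraced cells ran from 0 to 9.20 with a median of 0 and 31.6% detected (12.6 to 56.6%), against the median of 4.29 and 59.1% of traced cells (43.2 to 73.7%), and the intervals overlap. The difference was 1.62, and Mef2c was next with 0.98. That was 1 of 10 higher beside 3.34% of genes and 0 of 10 lower beside 5.05%. On log2 of the mean TPM the Tcf21 difference was 0.60, with Tbx20 at 1.19 and Mef2c at 1.16. On medians Tbx20, at 2.47, Gata6, at 2.70, and Mef2c, at 1.75, were also past 1 log2 unit. With a pseudocount of 0.1 TPM so were Tbx20, at 1.08, and Mef2c, at 1.46.

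Among resident cells, Tcf21-traced against Postn-negative, Gata6 was 1.45 higher and Mef2a differed by -1.12, 1 of 10 higher beside 8.65% of genes and 1 of 10 lower beside 6.55%. Tcf21 differed by 0.68 between them, with 52.9% and 41.7% of cells detected, but by 2.0 on medians and 1.68 with Postn-positive cells put back. Among cells with at least 2000 genes, 11 and 9 cells, neither Gata6 nor Mef2a was past 1 log2 unit, with Gata6 at 0.75 and Mef2a at -0.82, while Tbx20 was at -1.57 and Mef2c at -1.05. Without the Postn-negative cell with myeloid markers Mef2a was at -0.85 and no longer past 1 log2 unit, Gata6 was at 1.26, and Tcf21 was at 0.39, or 0.90 on medians. Which factors were called among resident cells thus depended on which cells were kept and on the average.

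Of the 60 differences in the 6 comparisons, 9 were past 1 log2 unit and 0 of those 9 exceeded the larger SD between cells of the classes compared, which ran from 2.82 to 4.03. A call of this size therefore describes where a class mean lay and does not separate the cells of one class from those of another. Of 6 smooth muscle markers 2 were higher on Tcf21 lineage activation, between the Jul29 classes and for Postn-traced against resident Tcf21-traced cells. The shares of all genes higher there were 16.9%, 16.7% and 20%. Within Nov4 2 of the 6 were lower, beside 5.05% of genes. For Postn-negative cells on activation and among resident cells 1 was higher, beside 10.3% and 8.65% of genes. Fibroblast markers had 2 of 6 higher and 3 lower on Tcf21 lineage activation, beside 16.9% and 2.65% of genes. They had 2 and 0 between the Jul29 classes (16.7% and 2.35%), and 2 and 2 for Postn-traced against resident Tcf21-traced cells (20% and 2.51%). Postn-negative cells on activation had 1 and 0 (10.3% and 5.2%), Nov4 1 and 1 (3.34% and 5.05%), and resident cells 2 and 0 (8.65% and 6.55%). Without the resident cell with myeloid markers Postn-negative cells had 0 and 2, and resident cells 1 and 0.

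**Figure D4:**
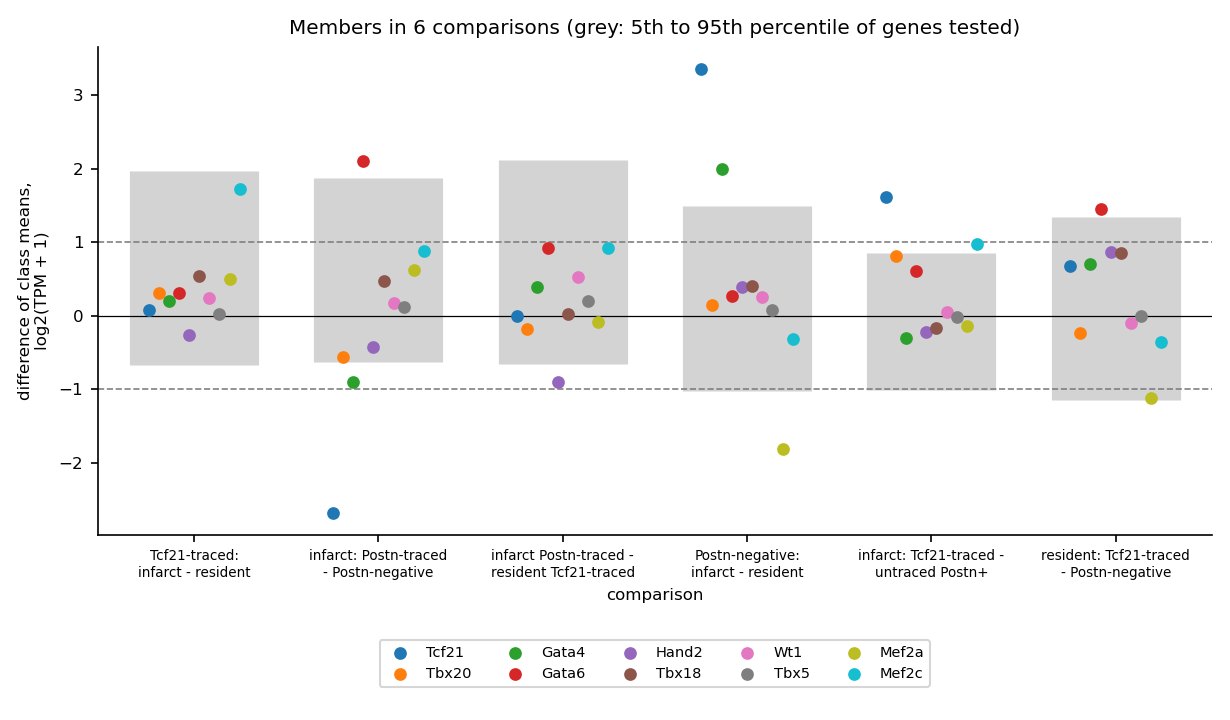
Difference of class means in log2(TPM + 1) for the 10 factors in 6 comparisons, 1 point a gene, with 1 log2 unit dashed. Grey bands run from the 5th to the 95th percentile of the 15733 genes tested; Tcf21 lies at -2.68 between Postn-traced and Postn-negative cells and at 3.35 between Postn-negative cells of infarct and uninjured hearts.

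Scar cells of Nov11 had the lowest Tcf21 share and the highest Wt1 share among the classes of over 3 cells, but their intervals overlap those of some other classes, and the difference was not tested. Tcf21 was detected in 5 of 29 scar cells, 17.2% (5.85 to 35.8%), with a median level of 0, against 42.9% (24.5 to 62.8%) of untraced Postn-positive cells. The latter share pools 3 captures, with 4 of 6 cells in Jul29, 6 of 19 in Nov4 and 2 of 3 in Nov11. Tbx20 was detected in 9, 31% (15.3 to 50.8%). Without the cells under 300 genes, left out after seeing the data, the shares were 20.8% and 37.5%. Gata6 was detected in 16 of 29, 55.2% (35.7 to 73.6%), counting the cells under 300 genes, none of which held it. Only 3 untraced Postn-positive cells shared this capture, so class and capture cannot be told apart.

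Wt1, a zinc finger factor of the epicardium, was detected in 11 of 152 infarct cells, 7.24% (3.67 to 12.6%), and 0 of 33 resident cells, which allows a share of up to 10.6%. Only 2 of the 33 resident cells, against 92 of 152 infarct cells, had at least the 2755 genes of the shallowest Wt1 cell, so the 0 does not show that resident cells lacked Wt1. Of the 11 cells, 6 were scar cells, 20.7% of that class (7.99 to 39.7%), where the levels ran from 6.00 to 10.25, and 2 were Postn-traced. Gata6 was detected in 10 of the 11, Gata4 in 4, Tcf21 and Tbx20 in 1 each, the same cell, and Mef2c in 0. In the 141 other infarct cells Gata6 was detected in 51.8%, Tcf21 in 52.5%, Tbx20 in 51.1% and Mef2c in 36.9%. Those cells pool classes whose shares differ. Within the scar class Tcf21, Tbx20 and Mef2c were detected in 0 of 6 Wt1 cells, and in 21.7%, 39.1% and 26.1% of scar cells without Wt1. Gata6 was detected in 5 of the 6 and in 47.8%. The scar cells without Wt1 include the cells under 300 genes, which held none of Tcf21, Tbx20, Gata6 and Mef2c and so lower these shares. Within the scar class the shares were not compared at like depth. The Wt1 cells were deep, with 2755 to 4881 genes. In the 81 other infarct cells with at least 2755 genes, a limit chosen after seeing the data, Gata6 was detected in 69.1% (57.9 to 78.9%), Tcf21 in 53.1% (41.7 to 64.3%), Tbx20 in 58% (46.5 to 68.9%) and Mef2c in 43.2% (32.2 to 54.7%). These 81 cells pool the classes as well, while Tcf21 was detected in 17.2% of all scar cells, so class mix and Wt1 cannot be told apart here. At a minimum of 1 TPM, 16 cells held Wt1, 1 of them resident, and 4 of the 16 held Tcf21.

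One of the Wt1 cells, a Postn-negative cell with 4881 genes, the most of its class, held 7 of 9 epicardial and mesothelial markers, among them Krt19 at 9.83, Krt8 at 9.35 and Msln at 9.29, with Dcn at 12.68 and Tcf21 at 0. The only other cell with at least 3 of these markers was a scar cell that also held Wt1, with Lrrn4, Bnc1 and Aldh1a2. Aldh1a2 was detected in 5 of the 11 Wt1 cells, 45.5% (16.7 to 76.6%), and in 22.7% of the other infarct cells. The Wt1 cells were deeper, with a median of 3905 genes against 2960, and this share was not compared at like depth. Apart from the cells just described, no Wt1 cell held another marker of the list. A further Wt1 cell of the scar held the pericyte marker Rgs5 at 11.89 with Pdgfrb at 9.06. Without the first of these cells, left out after seeing the data, the Jul29 differences were -2.97 for Tcf21 and 2.32 for Gata6. The antisense gene Wt1os was detected in 2 cells, both with Wt1, and strand was not given in the sources used here, so reads of the pair cannot be told apart.

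Tbx5, a T-box factor of the atria and left ventricle, was detected in 4 cells, 3 scar cells and 1 Postn-traced cell. All 4 held Gata6, 1 held Wt1, and 0 held Tcf21 or Tbx20. Tbx18 was detected in 25% of infarct (13.2 to 40.3%) and 11.8% of resident Tcf21-traced cells (1.46 to 36.4%), and Hand2 in 29.4% of resident and 25% of infarct Tcf21-traced cells. The 29 cells with none of Tcf21, Tbx20 and Gata6 included 8 scar and 8 untraced Postn-positive cells, but 5 of these scar cells had under 300 genes, and without them 24 cells were left, 3 of them scar cells. In all, 31 cells held all 3.

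**Figure D5:**
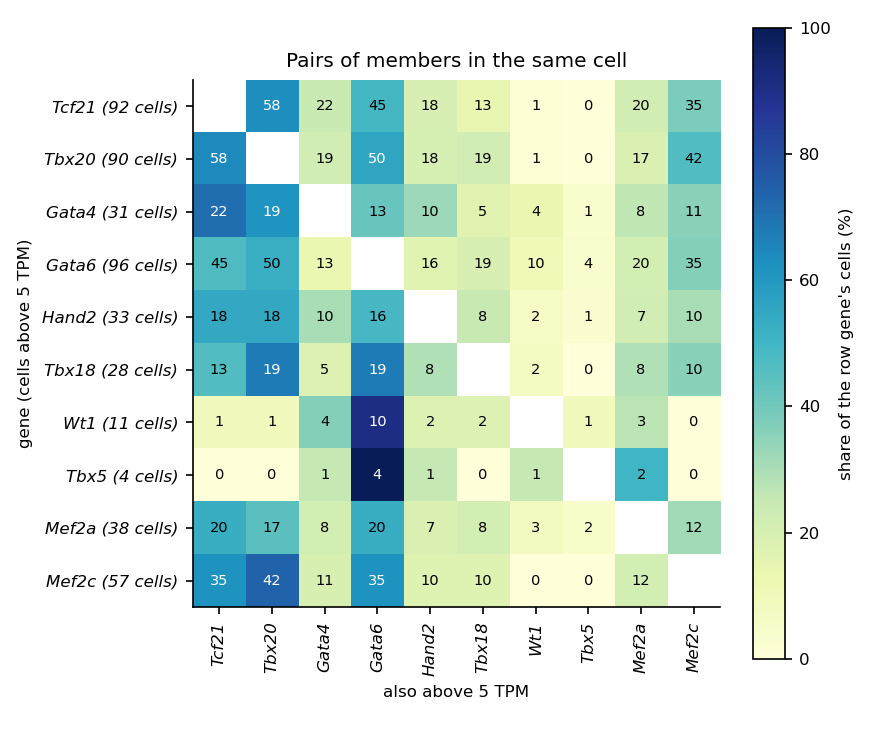
Cells with 2 factors above 5 TPM together, as the count in each square, with the colour giving it as a share (%) of the row gene's cells. Wt1 shares 10 of its 11 cells with Gata6 and 1 with Tcf21, and Tcf21 and Tbx20 share 58.

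Tbx20 and Mef2c were found together in 42 cells, 73.7% of Mef2c cells and 46.7% of Tbx20 cells. Over all cells, which share captures and differ in depth, the Pearson correlation of Tbx20 with Mef2c was 0.34. Among 5038 other genes detected in at least 20% of cells, those most like Tcf21 were Dpep1 (0.42), Gsn (0.38) and Ms4a4d (0.37). Those most like Tbx20 were Map1b (0.36), Mef2c and Sptbn1 (0.33), and those most like Gata6 were Psmd1 (0.37), Snrpf (0.37) and Ran (0.36). For Mef2a they were Mrpl27 (0.32), Srd5a3 (0.31) and Tmem106c (0.31), and for Mef2c, Tbx20, Vps4b (0.28) and Myof (0.28). By Spearman rank correlation the same 3 genes led for Tcf21 and Tbx20, but only 1 of the 3 for Gata6, Mef2a and Mef2c. Correlations this weak in sparse values are no finding.

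Other genes of these families were counted in the same way. Their lists are short, and counts of 1 or 2 in them are no result about a list. The T-box and core cardiogenic rows each include 1 gene that no cell held above 5 TPM, so 5 of 6 and 6 of 7 of them were among the genes of the background. On Tcf21 lineage activation, where 16.9% of all genes were higher and 2.65% lower, the T-box family had 1 of 6 rows higher, Mga, a T-box protein that pairs with Max, by 1.76, and the GATA family and cofactors had 1 of 4, Trps1, by 1.35. Among helix-loop-helix partners and Id inhibitors 1 of 9 was higher, the E protein Tcf12 by 1.20, and 2 were lower, Tcf4 at -1.13 and Id2 at -1.16. MEF2 relatives and regulators had 0 of 9 in either direction, with the histone deacetylases Hdac4 and Hdac7 at 0.68 and 0.57. Of the core cardiogenic list 1 of 7 was lower, Heyl at -1.46, and of fibroblast lineage factors 1 of 15 was lower, Klf4 at -1.44. Retinoid and epicardial partners had 0 of 8, with Aldh1a1 at -0.61. Nkx2-5, Isl1, Irx4, Mesp1, Nkx2-6 and Hand1 were listed but had no row. The counts are over the genes of a list that had a row.

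Between Postn-traced and Postn-negative cells of Jul29, where 16.7% of all genes were higher and 2.35% lower, fibroblast lineage factors had 4 of 15 higher and 2 lower, with Meis1 at 1.5, Tead1 at 1.35 and Klf4 at -2.36. The T-box family had 0 of 6 and the core cardiogenic list 0 of 7 in either direction. The coactivator Mkl2 of serum response factor was 2.36 higher, the only 1 of 9 in its list. Of helix-loop-helix partners 1 of 9 was higher and 1 lower, the inhibitor Id1 at 1.31 and Tcf4 at -1.39, and Id1 was listed at 0 in all 24 Postn-negative cells. Retinoid partners had 3 of 8 higher and 1 lower, Aldh1a2 at 1.29 and Aldh1a1 at -1.23 among them, and Trps1 was 1.20 higher, 1 of 4.

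Postn-traced cells against resident Tcf21-traced cells, with 20% of all genes higher and 2.51% lower, had 1 of 6 T-box rows higher, Mga by 2.54, and 1 of 9 MEF2 relatives, Mkl2 by 1.70. Fibroblast lineage factors had 4 of 15 higher and 1 lower, with Ebf1 at 2.01 and Klf4 at -2.25, a share of higher genes near that of all genes. There helix-loop-helix partners had 1 of 9 higher and 2 lower, and retinoid partners 2 of 8 higher and 1 lower. The GATA list had 0 of 4, and the core list 1 of 7 lower, Heyl at -1.32. Postn-negative cells of infarct against uninjured hearts, with 10.3% of all genes higher and 5.2% lower, had 1 of 15 fibroblast lineage factors higher, Ebf1 by 1.98. Lower were 1 of 4 in the GATA list (Trps1 at -1.81), 1 of 9 helix-loop-helix partners (Id1 at -2.93), 1 of 7 core factors (Heyl at -1.71) and 1 of 8 retinoid partners (Aldh1a1 at -2.29), with 0 of 6 T-box rows and 0 of 9 MEF2 relatives. Without the resident cell with myeloid markers 1 of 15 fibroblast lineage factors was lower too, Meis2, which went from -0.87 to -1.004.

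Within Nov4, with 3.34% of all genes higher and 5.05% lower, Tcf21-traced cells had Mga, 1 of 6, at 1.20 and Trps1, 1 of 4, at 1.08, and 1 of 9 helix-loop-helix partners higher with 2 lower, Id1 at -1.64 among them. The MEF2, core, fibroblast lineage and retinoid lists had 0 in either direction there. Among resident cells, with 8.65% of all genes higher and 6.55% lower, Mga, 1 of 6, was at -1.92 and Trps1, 1 of 4, at -1.03, 2 of 9 MEF2 relatives were higher, Mkl2 by 1.25 and Hdac7 by 1.16, and retinoid partners had 1 of 8 higher and 1 lower, Aldh1a1 at -2.26. Fibroblast lineage factors had 1 of 15 lower there, and the core and helix-loop-helix lists 0. Without the Postn-negative cell with myeloid markers Heyl, at -1.04, and Tcf12, at -1.11, were past 1 log2 unit there too. The 17 resident Tcf21-traced cells enter each of the comparisons where Mga was at 1.76, 2.54 and -1.92, so these 3 values are not independent.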

How the data were processed

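Single-cell RNA sequencing of mouse heart fibroblasts was analysed from 1 table. The authors deposited log2 values of TPM plus 1, made with Bowtie 1.0.0, eXpress 1.5.1 and mm10 per the submitters' processing notes; per cell the TPM summed to between 999257 and 1000000. The table keeps no read counts, so depth is given as genes above 5 TPM. 3 further columns of the table belong to no sample and were not used. Cells were grouped by their labels into 9 classes. Means, SDs between cells, shares above 5 TPM with exact 95% intervals and differences of class means were computed in Python 3.11.15 with NumPy 2.4.6, pandas 2.3.3 and SciPy 1.17.1. Figures used Matplotlib 3.10.9. A gene was called past 1 log2 unit among 15733 genes above 5 TPM in at least 1 cell. No test was run, since no label names the mouse. The call was tried on simulated data. Known shifts put into these data were recovered, but their size is not given here, so the recovery is no support for the call. Many unshifted genes also passed 1 log2 unit between classes drawn from the same cells. A call is therefore a description and not evidence of a difference.

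The factors and the gene lists were chosen with earlier results of these data known. Named genes were all 10 factors, from each list up to 4 genes detected in at least 20% of cells, those past 1 log2 unit first, and the 3 genes most correlated with each factor detected that often. Alternatives changed the pseudocount (0.1 or 5 TPM), the average, the scaling, the minimum (1 or 10 TPM or any value over 0) and the cells kept.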

Additional observations from a re-analysis of the deposited data

How the results depend on the processing

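No paired analysis was possible because no label names the mouse. Over 8 planned and 3 added alternatives, the latter chosen after seeing the data, 500 values of factor differences were computed. Keeping only cells with at least 50% of the median genes of their capture removed no cell from these comparisons, so its 60 values could not change and are left out. Of the other 440, 299 kept their direction and their side of 1 log2 unit, 37 changed sign with both values within 1 log2 unit and 36 within it came to 0. A further 52 were newly past 1 log2 unit, 11 no longer were, and 5 changed sign with a value past it on at least 1 side. Of all 42 changes of sign, 12 were on log2 of the mean TPM plus 1, 6 with cells centred on their median gene, 5 with Postn-positive cells put back, 5 with cells of at least 2000 genes and 4 with cells of 2000 to 3000 genes. The 5 with a value past 1 log2 unit were on log2 of the mean TPM plus 1: on Tcf21 lineage activation Gata4 was at -1.29, Tbx18 at -2.98 and Mef2c at -0.29, for Postn-traced against resident Tcf21-traced cells Tbx18 was at -3.45, and for Postn-negative cells on activation Gata6 was at -1.22. Among detection shares 7 values left their interval, and 7 pair counts moved by more than 1.5 times or to or from 0.

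The counts of factors past 1 log2 unit changed by more than 1.5 times in these cases, higher before lower. The shares of all genes under the same alternatives are not given beside them. All genes may have moved alike, so these counts are no result about the factors. With a pseudocount of 0.1 TPM they were 2 higher on Tcf21 lineage activation, 3 and 2 between the Jul29 classes, 2 and 1 for Postn-traced against resident Tcf21-traced cells, 3 higher within Nov4 and 4 higher among resident cells. With 5 TPM they were 0 higher on Tcf21 lineage activation and 0 lower among resident cells. With the median over cells they were 4 higher on Tcf21 lineage activation (Tcf21, Tbx20, Gata6 and Mef2c), 2 lower between the Jul29 classes, 1 and 1 for Postn-traced against resident Tcf21-traced cells, 1 and 0 for Postn-negative cells, 4 higher within Nov4, and 2 and 0 among resident cells. On log2 of the mean TPM they were 2 lower on Tcf21 lineage activation, 4 and 3 between the Jul29 classes, 2 and 2 for Postn-traced against resident Tcf21-traced cells, 5 and 2 for Postn-negative cells, 2 higher within Nov4 and 3 higher among resident cells. With cells of at least 2000 genes they were 2 higher on Tcf21 lineage activation, 1 higher for Postn-traced against resident Tcf21-traced cells, and 0 and 2 among resident cells. With each cell centred on its median gene they were 3 higher between the Jul29 classes and 3 higher for Postn-traced against resident Tcf21-traced cells. With Postn-positive cells put back they were 1 higher for the latter, 1 higher for Postn-negative cells and 2 higher among resident cells. With cells of 2500 to 4000 genes they were 0 and 3 between the Jul29 classes. The cause was not tested. Not counted here, and chosen after seeing the data: without the resident cell with 4 of 5 myeloid markers, 0 were lower among resident cells, beside 7.13% of genes.

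With the background limited to genes that 20% or more of cells held in whichever class was higher, the shares of genes higher and lower were 42.2% and 6.28% on Tcf21 lineage activation, 39.7% and 5.59% between the Jul29 classes, 47.5% and 5.77% for Postn-traced against resident Tcf21-traced cells, 29.5% and 13.8% for Postn-negative cells, 7.38% and 11.3% within Nov4, and 25.3% and 18.9% among resident cells. A gene could pass this filter through the class where it was high, so these are no background for the factors.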

Other observations

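The values rest on cells whose mice are not named, so spread between mice could not be measured, and every interval covers counting error alone. SDs between cells reached 4.15 log2 units for Tcf21, well over the 1 log2 unit used for a call. Infarct and uninjured hearts never shared a capture. Depth differed between classes and Gata6 detection went with it. Wt1 and Tbx5 were detected in 11 and 4 cells, so their pairings with other factors rest on few cells.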
